A study of Mus musculus with 7 samples.

Results

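The nuclear genes of respiratory complexes II to V and cytochrome c were followed in the left atrium of adult mice of the outbred CD1 strain. Members were all rows of the deposited gene table named Sdha, Sdhb, Sdhc or Sdhd (complex II), starting with Uqcr or named Cyc1 (complex III), named Cycs (cytochrome c), starting with Cox4 to Cox8 (complex IV) or starting with Atp5 (complex V). That gave 49 of 24421 genes: 4 in complex II, 9 in complex III, 1 for cytochrome c, 18 in complex IV and 17 in complex V. RNA sequencing covered 4 libraries of left atria overexpressing FOG2 (FOG2_OE) and 3 libraries of wild type left atria (WT). FOG2, the Zfpm2 product, acts as a partner protein of GATA transcription factors, and the series sets it in a TBX5 and GATA4 network of the atrium. The labels speak of DTG and NTG animals, all without doxycycline for a week before harvest; neither abbreviation is spelled out there. The promoter that drove FOG2, the sex and litter of the animals, and whether each library came from its own animal are not stated in the sources used here.

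These complexes sit in the inner mitochondrial membrane. Complex II (succinate dehydrogenase) passes electrons from succinate to ubiquinone, complex III passes them to cytochrome c, complex IV (cytochrome c oxidase) passes them to oxygen, and complex V (ATP synthase) makes ATP from the proton gradient that complexes III and IV help to build. The beating heart depends on this pathway for most of its ATP. Complex II is encoded in the nucleus alone, while complexes III to V also hold subunits encoded in mitochondrial DNA, which were not analysed here. Cytochrome c oxidase has small subunits in pairs of paralogues, one enriched in heart and skeletal muscle and one found in most tissues.

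Summed gene counts were 8655655, 6448260, 5562520 and 8610508 in FOG2_OE replicates 1 to 4 and 8521897, 7673309 and 8579443 in WT replicates 1 to 3, so that 1 count stood for 0.116 to 0.18 CPM, the count scaled to library size. Zfpm2 stood at 139.9, 222, 261 and 246 CPM in FOG2_OE and at 31.7, 30.9 and 29.4 CPM in WT. FOG2_OE replicate 1 correlated less closely with the other FOG2_OE libraries (r = 0.947 to 0.949 across genes) than those did with each other (0.978 to 0.983). Markers of the atrial cardiomyocyte were abundant in every library and Irx4, a ventricular factor, was at or near 0. FOG2_OE replicate 2 held 15 CPM of Ucp1 (brown fat), 17.4 CPM of Adipoq (fat) and 45.3 CPM of Myl2 (ventricular myosin light chain), against at most 0.222, 4.797 and 1.39 CPM in any other library. The summed lists did not single it out: the 8 brown fat markers came to 174, 115, 96.9 and 117 CPM in FOG2_OE and 96.9 to 130.3 CPM in WT, and the 4 ventricular markers to 103, 101, 63.6 and 48.9 CPM in FOG2_OE and 40.8 to 53.5 CPM in WT. Replicate 1 owed its sums mainly to Dio2 (114 CPM), a deiodinase, and Lbh (101 CPM), a transcription cofactor.

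Of the 45 members that passed a filter on low counts, 6 fell with FOG2 overexpression, when 3.29% of the 13295 genes tested did, and none rose, when 1.55% of all genes did. With scaling to library totals 2 were called lower and 1 higher, when 2.21% and 3.34% of all genes were. With scaling to the sarcomere genes 0 were called lower and 2 higher, when 1.34% and 23.2% of all genes were. The 6 were Sdha, Sdhb and Sdhd of complex II, Cox5a and Cox8b of complex IV, and Atp5s, whose product is named after complex V without being a subunit of it. A gene was taken as changed at an adjusted p under 0.05 (edgeR quasi-likelihood test, Benjamini-Hochberg over all tested genes). Small negative differences were spread over the pathway: 42 of 45 members had a negative log2 fold change, as did 6216 of all 13295 genes. With scaling to library totals 35 members were negative, and with scaling to the sarcomere genes 6 were. The members' median was -0.29 where that of all genes was 0.02. It was -0.17 against 0.14 with scaling to library totals, and 0.17 against 0.47 with scaling to the sarcomere genes. In 21 members every FOG2_OE library lay below every WT library, which 10.8% of all tested genes did, and 26 had an unadjusted p under 0.05, as did 2551 of all 13295 genes. Another 7 members had an adjusted p between 0.05 and 0.1 by edgeR: Cycs, Uqcrc2, Uqcrfs1, Cyc1, Atp5j and Atp5c1 on the lower side and Cox8a on the higher. The count depended on single libraries, being 9, 2, 0 and 1 without FOG2_OE replicates 1 to 4 in turn and 1, 0 and 0 without WT replicates 1 to 3. Of all genes tested in those fits, 4.99%, 2.15%, 2.2% and 2.3% were lower without FOG2_OE replicates 1 to 4. Without WT replicates 1 to 3 the shares were 1.52%, 1.34% and 1.95%. With DESeq2 in place of edgeR, 15 members were lower and 1 was higher, while DESeq2 called 5.12% of all genes lower and 3.46% higher.

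**Figure D1:**
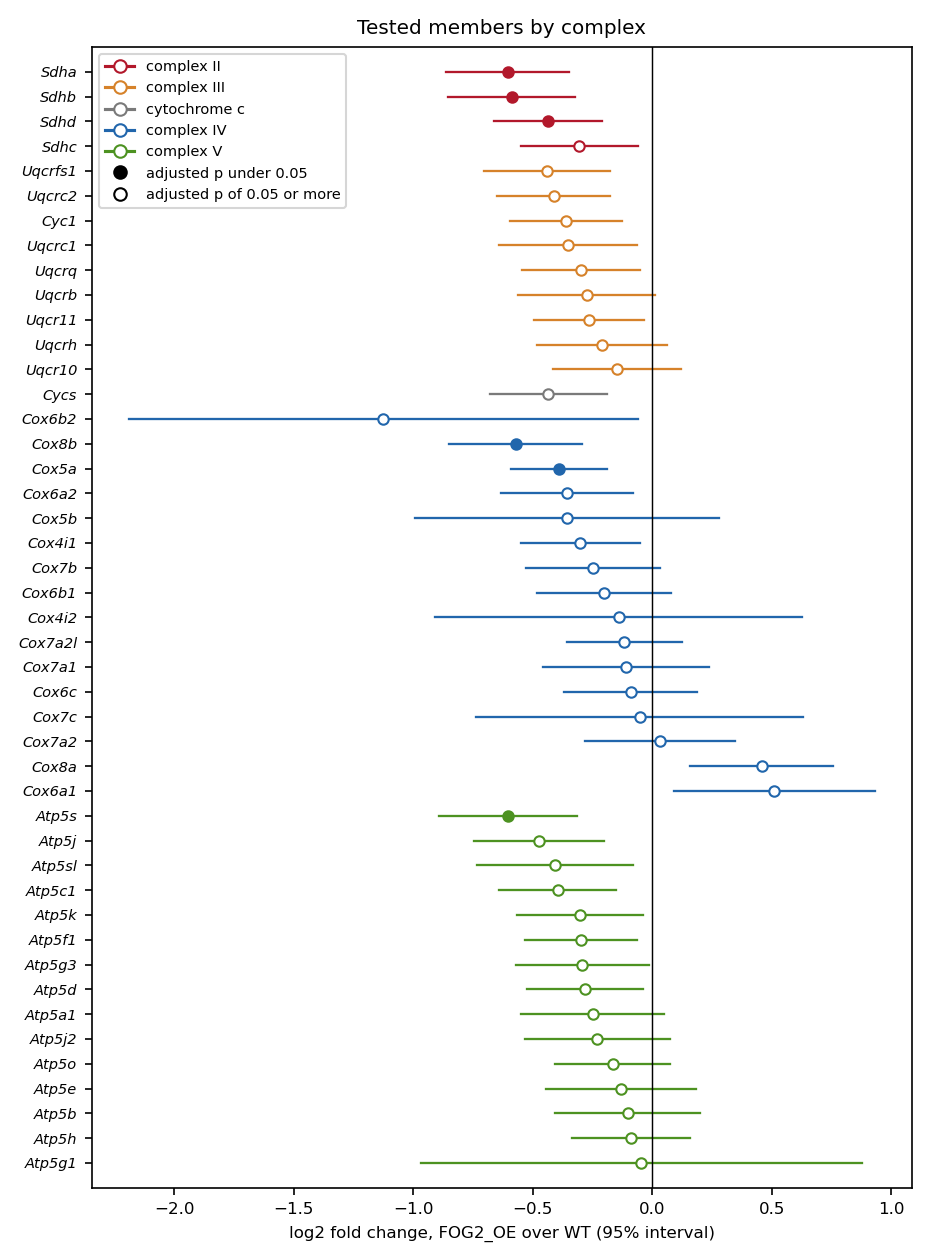
Log2 fold change of each tested member (FOG2_OE over WT, horizontal axis) with its 95% interval, ordered by complex; filled points passed an adjusted p of 0.05. The 42 points left of 0 include all tested members of complexes II, III and V, and the 3 right of it are the complex IV genes Cox7a2, Cox8a and Cox6a1.

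The plot of log2 fold changes shows how narrow the range was: leaving out Cox6b2, a gene of few counts, the values ran between -0.61 (Sdha) and 0.51 (Cox6a1). Complex II had the lowest median, -0.51, followed by complex III (-0.30), complex V (-0.28) and complex IV (-0.17), and Cycs stood at -0.43. In bulk tissue, fewer cells of a type and less RNA per cell cannot be told apart. Library by library, the median over the 45 members of the log2 difference from the WT mean was -0.29, -0.19, -0.40 and -0.28 in FOG2_OE replicates 1 to 4, against -0.08, 0.03 and 0.06 in WT. The 4 FOG2_OE libraries thus lay on one side of the 3 WT libraries. The WT libraries are measured from their own mean, so their values lie around 0 by construction. The same medians over all 13295 genes lay between 0.00 and 0.01 in every library, but the scaling itself holds them near 0.

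**Figure D2:**
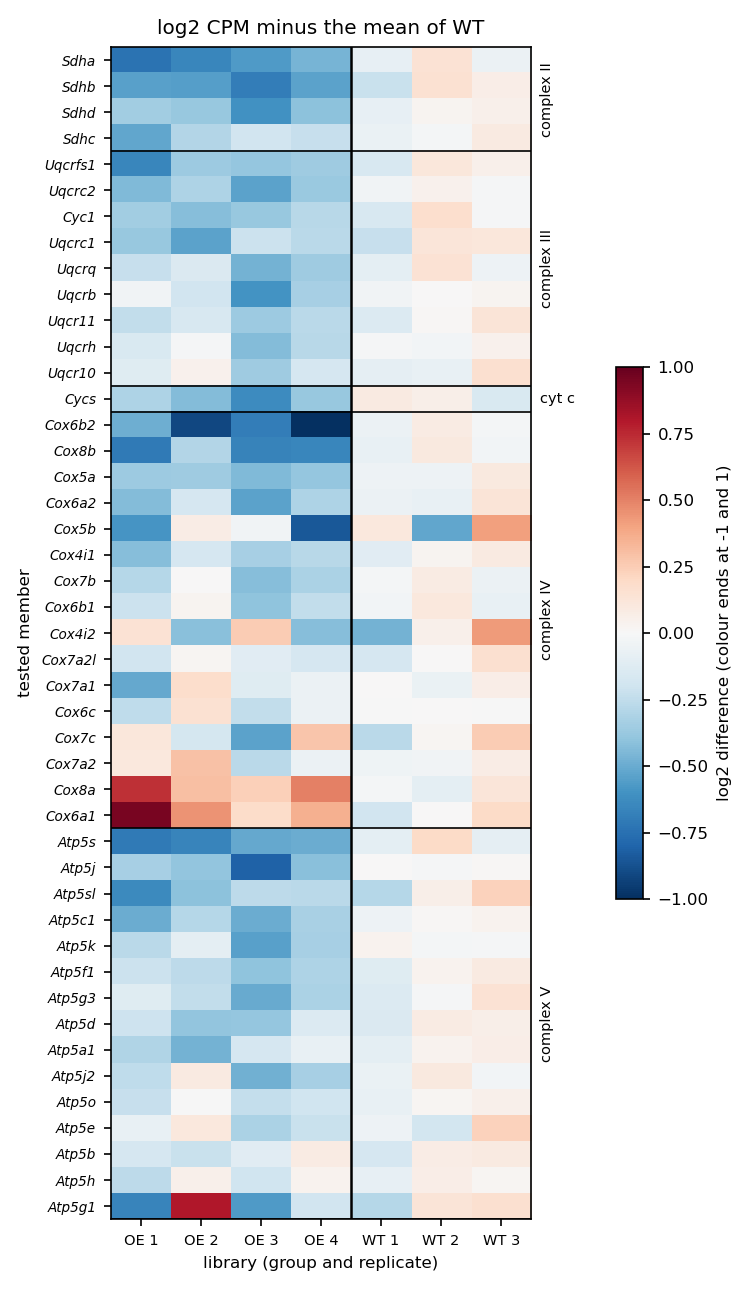
Log2 CPM of each tested member minus its mean over the 3 WT libraries, with FOG2_OE libraries on the left and WT libraries on the right; blue is lower and red is higher, and the colours end at -1 and 1. Rows of complex II are blue in all 4 FOG2_OE libraries, while Cox8a and Cox6a1 in complex IV are red in each of them.

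Complex II was the complex with the lowest median, and 3 of its 4 genes fell, where 3.29% of all tested genes did. All 4 genes had every FOG2_OE library below every WT library, where 10.8% of all tested genes did. Sdha and Sdhb encode the flavoprotein and the iron-sulfur subunit that carry out the oxidation of succinate, and Sdhc and Sdhd encode the membrane anchor that holds haem and hands electrons to ubiquinone. The sequences upstream of the 3 genes that fell are shown because complex II had the lowest median of the complexes, so that the promoters can be read beside the values. Each is the 250 bases before the RefSeq gene start in GRCm38.p6, given 5′ to 3′ on the gene's own strand; capitals mark TGCGCA, the core of the NRF1 motif, in Sdha and Sdhd, and the GC box GGGCGG, on the opposite strand as CCGCCC, in Sdhb. The Sdha stretch lies at chr13:74350241-74350490 (minus strand), that of Sdhb at chr4:140961021-140961270 (plus strand) and that of Sdhd at chr9:50603850-50604099 (minus strand). The starts of Sdha and Sdhb in the GENCODE annotation lie within these stretches, so the last part of each is inside the gene as GENCODE draws it. That part of the Sdha stretch holds the TGCGCA nearest its end.
Sdha: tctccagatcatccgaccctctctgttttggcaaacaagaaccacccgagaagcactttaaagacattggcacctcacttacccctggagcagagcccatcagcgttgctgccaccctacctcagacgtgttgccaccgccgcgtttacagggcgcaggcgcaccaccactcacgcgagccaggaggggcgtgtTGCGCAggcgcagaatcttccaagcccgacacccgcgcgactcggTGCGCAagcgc
Sdhb: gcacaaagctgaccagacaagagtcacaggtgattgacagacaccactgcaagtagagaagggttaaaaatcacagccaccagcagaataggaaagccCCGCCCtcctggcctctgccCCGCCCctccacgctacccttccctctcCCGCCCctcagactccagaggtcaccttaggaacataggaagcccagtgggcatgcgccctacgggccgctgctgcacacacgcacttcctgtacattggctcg
Sdhd: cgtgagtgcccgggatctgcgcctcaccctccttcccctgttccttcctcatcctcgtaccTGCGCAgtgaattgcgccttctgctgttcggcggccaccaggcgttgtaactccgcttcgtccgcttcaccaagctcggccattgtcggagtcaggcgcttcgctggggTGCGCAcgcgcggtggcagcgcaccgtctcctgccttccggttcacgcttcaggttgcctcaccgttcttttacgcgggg

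Sdha, a gene at chr13:74322254-74350280 on the minus strand in mm10, had 535, 569, 602 and 647 CPM in FOG2_OE libraries, against 844, 986 and 855 CPM in WT libraries. The highest FOG2_OE library was thus well below the lowest WT library. The mean was 588 ± 47.5 CPM in FOG2_OE (SD, n = 4) and 895 ± 78.9 CPM in WT (SD, n = 3), and the log2 fold change was -0.61 with an SE of 0.11 (edgeR, adjusted p = 0.0182; ± after a log2 fold change is the SE throughout). Sdhb (chr4:140961203-140979193, plus strand) had 432, 429, 389 and 434 CPM in FOG2_OE and 538, 700.3 and 660.3 CPM in WT. The FOG2_OE libraries lay close together and WT replicate 1 was the nearest WT library to them; the log2 fold change was -0.59 ± 0.12 (edgeR, adjusted p = 0.0233). Sdhd (chr9:50596357-50603812, minus strand) had 308, 301, 257 and 294 CPM in FOG2_OE and 371, 400.2 and 405 CPM in WT. FOG2_OE replicate 3 was the lowest library, no FOG2_OE library reached the WT range, and the log2 fold change was -0.44 ± 0.10 (edgeR, adjusted p = 0.0429). Sdhc had 237, 277, 297 and 290 CPM in FOG2_OE and 324, 335 and 362 CPM in WT. Its libraries did not overlap either, but with a log2 fold change of -0.31 ± 0.11 it did not pass the test (edgeR, adjusted p = 0.162). The call of Sdha was lost without FOG2_OE replicate 3 (edgeR, adjusted p = 0.0505) or without WT replicate 1, 2 or 3 (0.0609, 0.108 and 0.0546). That of Sdhb was lost without FOG2_OE replicate 2, 3 or 4 (edgeR, adjusted p = 0.0517, 0.0697 and 0.0517) or WT replicate 2 or 3 (0.127 and 0.087), and that of Sdhd without any 1 library other than FOG2_OE replicate 1 (0.074 to 0.175). With scaling to library totals Sdha (0.0271) and Sdhb (0.0401) passed and Sdhd (0.109) did not, and with scaling to the sarcomere genes none of the 3 passed (edgeR, adjusted p = 0.412 to 0.918).

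**Figure D3:**
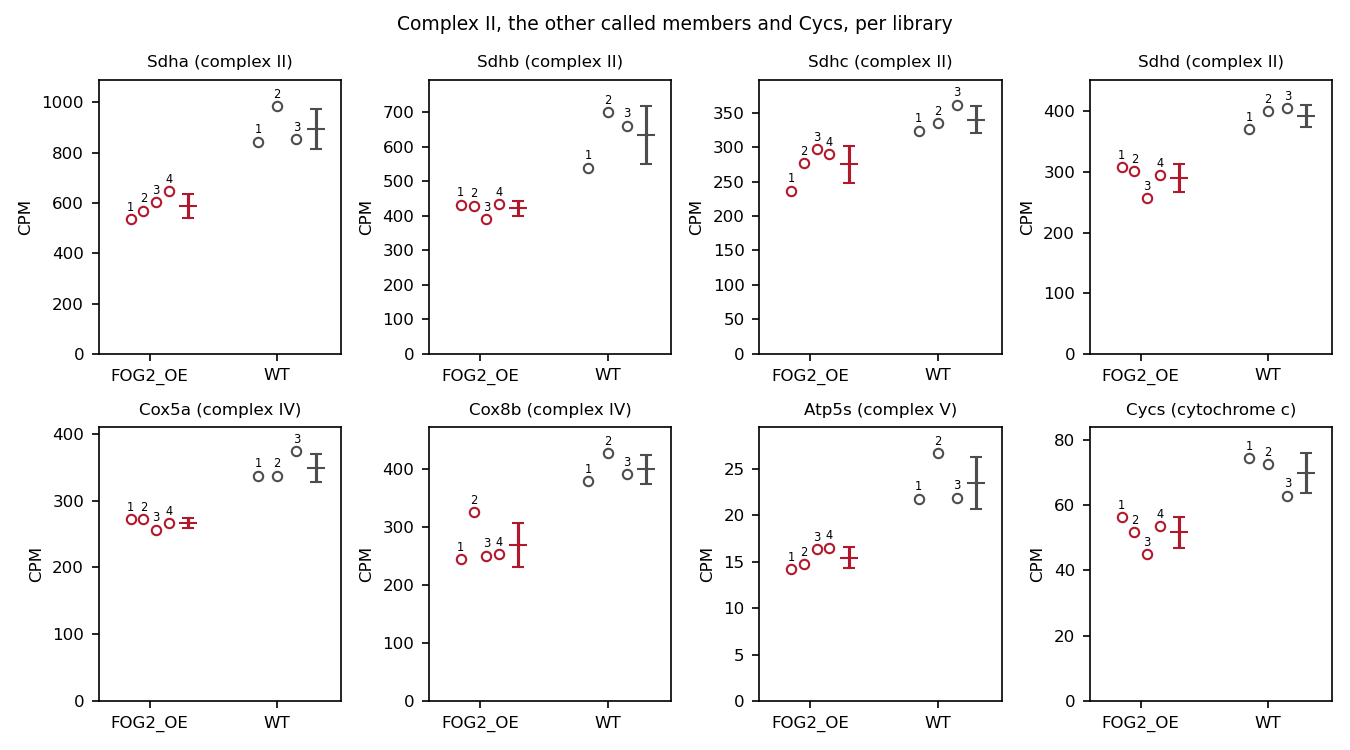
CPM per library (points, numbered by replicate) with mean and SD (bars) for the 4 complex II genes, the other 3 genes past the test and Cycs; vertical axes start at 0. In all 8 panels the FOG2_OE points lie below the WT points, for Sdha at 535 to 647 against 844 to 986 CPM.

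The plot of these genes by library shows the gap between the groups beside the spread within them. Complex II also took a smaller part of the members' own counts, a measure that no library scaling enters. It made up 7.61%, 7.49%, 7.89% and 7.75% of the summed counts of all 49 members in FOG2_OE, against 9.10%, 9.65% and 8.97% in WT. The groups did not overlap, with means of 7.68% ± 0.17 (SD, n = 4) in FOG2_OE and 9.24% ± 0.36 (SD, n = 3) in WT. Complex III made up 14.8% to 15.8% in FOG2_OE and 16.03% to 16.3% in WT, again without overlap. Complex IV made up 22.8% to 27.3% in FOG2_OE and 23.1% to 24.4% in WT, and complex V 49.2% to 54.3% in FOG2_OE and 50.02% to 51.3% in WT, so both overlapped. These shares are given as a description, and their differences were not tested.

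**Figure D4:**
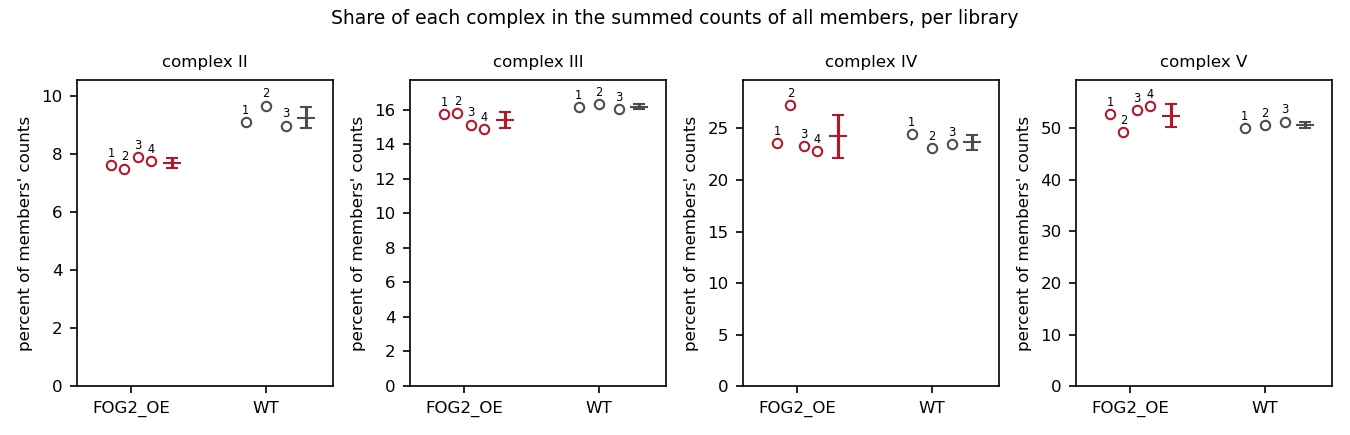
Percent of the summed counts of all members that each complex took in each library (points, numbered by replicate), with mean and SD (bars); vertical axes start at 0. The FOG2_OE points lie below the WT points for complexes II and III (7.49% to 7.89% against 8.97% to 9.65% for complex II) and overlap them for complexes IV and V.

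In complex III all 9 genes had negative values, as did 6216 of all 13295 tested genes, and none of the 9 passed the edgeR test. An unadjusted p under 0.05 was found in 6 of the 9, and in 2551 of all 13295 tested genes. DESeq2 called 3 of the 9 lower (Uqcrc2, Uqcrfs1 and Cyc1), where it called 5.12% of all genes lower. Uqcrfs1 encodes the Rieske iron-sulfur protein and Cyc1 encodes cytochrome c1, both on the path of electrons to cytochrome c; Uqcrc1 and Uqcrc2 encode the core proteins. Uqcrfs1 had 330.1, 402, 396 and 405 CPM in FOG2_OE and 464, 560.0 and 536 CPM in WT. Uqcrc2 had 738, 809.6, 692 and 776 CPM in FOG2_OE and 980.2, 1036 and 994 CPM in WT. Cyc1 had 233, 221, 227 and 245 CPM in FOG2_OE and 265, 333 and 294 CPM in WT. For these 3 genes every FOG2_OE library was below every WT library. Their log2 fold changes were -0.44 ± 0.12 for Uqcrfs1, -0.41 ± 0.10 for Uqcrc2 and -0.36 ± 0.10 for Cyc1, with edgeR adjusted p of 0.0684, 0.0585 and 0.0867. Uqcrc1 stood at -0.35 and its groups overlapped. The 5 small subunits ran between -0.30 (Uqcrq) and -0.15 (Uqcr10). Uqcrh, which encodes the hinge protein that helps cytochrome c dock on cytochrome c1, had 564, 624, 464 and 518 CPM in FOG2_OE and 622, 616 and 648 CPM in WT. FOG2_OE replicate 2 lay within the WT range, and the log2 fold change was -0.21 ± 0.12 (edgeR, adjusted p = 0.38).

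Cycs, the somatic cytochrome c that shuttles electrons between complexes III and IV, had 56.2, 51.6, 45.0 and 53.6 CPM in FOG2_OE and 74.3, 72.5 and 62.8 CPM in WT. All 4 FOG2_OE libraries were below the lowest WT library. The log2 fold change of -0.43 ± 0.11 missed the threshold (edgeR, adjusted p = 0.0561).

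Complex IV was the most mixed. Of its 16 tested genes 2 fell, where 3.29% of all tested genes did, 11 more had negative values and 3 had positive ones. Cox5a, a nuclear subunit on the matrix side, had 272, 272, 256 and 266 CPM in FOG2_OE and 337, 337 and 373 CPM in WT. The FOG2_OE libraries spanned a narrow range below the WT libraries, and the log2 fold change was -0.39 ± 0.09 (edgeR, adjusted p = 0.0424). Cox8b, the muscle form of a small membrane subunit, had 244, 325, 251 and 253 CPM in FOG2_OE and 379, 427 and 391 CPM in WT. FOG2_OE replicate 2 stood above the other FOG2_OE libraries and still below WT; the log2 fold change was -0.57 ± 0.12 (edgeR, adjusted p = 0.0329), and without that library it was -0.68. The calls did not hold without some libraries: that of Cox8b was lost without FOG2_OE replicate 3 or 4 or any 1 WT library (edgeR, adjusted p = 0.0849 to 0.152), and that of Cox5a without any 1 library other than FOG2_OE replicate 1 (0.0777 to 0.143). Neither passed with scaling to library totals (edgeR, adjusted p = 0.0838 for Cox8b and 0.128 for Cox5a) or to the sarcomere genes (0.669 and 0.778). Cox4i1, the common form of a subunit through which ATP regulates the enzyme, had 687, 819, 733 and 761 CPM in FOG2_OE and 851, 937 and 982 CPM in WT. It did not overlap between the groups but missed the threshold, at -0.30 ± 0.11 (edgeR, adjusted p = 0.182). Cox6b1, on the face that receives cytochrome c, had 602, 712, 528 and 587 CPM in FOG2_OE and 684, 749.7 and 662 CPM in WT. FOG2_OE replicate 2 lay inside the WT range, and the log2 fold change was -0.20 ± 0.12 (edgeR, adjusted p = 0.417). The 5 subunits with a single form (Cox5a, Cox5b, Cox6c, Cox7b and Cox7c) ran between -0.39 and -0.05. Cox7a2l, a factor that joins complexes III and IV into supercomplexes, is named like a subunit and stood at -0.12 ± 0.11. Cox7c had 10 to 28 counts a library although it encodes a subunit of every copy of the enzyme. Of the 50-base windows of its transcript 47.0% occur in no other gene. For Atp5o that share was 37.0%, and Atp5o had 3456 to 5993 counts a library. Reads that aligned to more than one place were not counted to genes, and the reason for the low counts of Cox7c was not tested.

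The muscle and common forms of 3 complex IV subunits were set side by side because both forms are made in the heart. Cox8b and Cox8a gave opposite signs. Cox8a, the common form, had 94.4, 69.9, 67.1 and 80.4 CPM in FOG2_OE and 55.8, 53.0 and 61.6 CPM in WT. It was the only tested member with every FOG2_OE library above every WT library, and its log2 fold change of 0.46 ± 0.13 missed the threshold (edgeR, adjusted p = 0.0909). It passed with DESeq2 (adjusted p = 0.0404), with an offset for transcript length (0.032) and with scaling to library totals (0.0378), under which Cox8b did not pass (0.0838). Among all tested genes 8.99% lay above WT without overlap. The 250 bases before the RefSeq starts of both genes are shown because this pair had the largest difference in ratio of the well-counted pairs; capitals mark AGGTGT, a T-box motif, and the Cox8b stretch held none of the motifs searched. Cox8b lies at chr7:140900447-140900696 (minus strand) and Cox8a at chr19:7217617-7217866 (minus strand) in GRCm38.p6.
Cox8b: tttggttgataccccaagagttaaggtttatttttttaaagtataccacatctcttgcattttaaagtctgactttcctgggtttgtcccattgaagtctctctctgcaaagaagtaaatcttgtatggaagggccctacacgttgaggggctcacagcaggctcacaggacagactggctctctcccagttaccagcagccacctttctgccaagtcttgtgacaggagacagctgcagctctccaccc
Cox8a: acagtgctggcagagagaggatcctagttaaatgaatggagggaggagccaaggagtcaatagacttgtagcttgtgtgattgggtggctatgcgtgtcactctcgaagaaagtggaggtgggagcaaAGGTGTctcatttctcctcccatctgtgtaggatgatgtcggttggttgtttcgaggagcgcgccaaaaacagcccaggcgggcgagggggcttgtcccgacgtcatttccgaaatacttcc

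The ratio of Cox8b to Cox8a counts within a library, which no library scaling enters, was 2.59, 4.65, 3.73 and 3.14 in FOG2_OE and 6.77, 8.04 and 6.34 in WT. Every FOG2_OE library had a lower ratio than every WT library, and the mean log2 ratio was lower by 1.02 (log2 difference -1.02). In Cox6a2 and Cox6a1, the muscle and common forms of a regulatory subunit, the ratio was 5.76, 9.81, 9.14 and 9.50 in FOG2_OE and 16.5, 14.3 and 14.4 in WT. The groups again did not overlap, and the log2 difference was -0.85. In an exact two-sided permutation test over the 35 ways to split the libraries, both pairs reached p = 0.0571, the smallest p the design allows, so no pair could pass 0.05 (adjusted p = 0.114 over the 6 pairs tested). Cox6a2 itself had 547, 658, 509 and 595 CPM in FOG2_OE and 708, 703 and 809 CPM in WT, with no overlap (-0.36 ± 0.12; edgeR, adjusted p = 0.147). Cox6a1 had 94.9, 67.1, 55.6 and 62.6 CPM in FOG2_OE and 42.7, 49.1 and 56.0 CPM in WT, where FOG2_OE replicate 3 lay within the WT range (0.51 ± 0.19; edgeR, adjusted p = 0.176). FOG2_OE replicate 1 held the highest Cox8a and Cox6a1 of all libraries; without it the log2 ratio differences were -0.89 for Cox8b over Cox8a and -0.67 for Cox6a2 over Cox6a1.

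Cox7a1 and Cox7a2, the muscle and common forms of another small subunit, did not follow. Their ratio was 0.936, 1.32, 1.59 and 1.44 in FOG2_OE and 1.48, 1.41 and 1.42 in WT. The groups overlapped, with FOG2_OE replicate 1 below WT and FOG2_OE replicate 3 above it (log2 difference -0.15; exact permutation test, p = 0.686). Cox7a1 had 473, 761, 618 and 648 CPM in FOG2_OE and 674, 644 and 704 CPM in WT, the highest value being in FOG2_OE replicate 2, the library that also held Ucp1. Cox7a2 had 505, 575, 389 and 449 CPM in FOG2_OE and 455, 457 and 494 CPM in WT, and the spread between its FOG2_OE libraries was wider than the gap between the groups. The interval of the log2 fold change ran between -0.46 and 0.24 for Cox7a1 and between -0.28 and 0.35 for Cox7a2. Brown fat also carries the muscle forms of these subunits, and their part in the values of FOG2_OE replicate 2 was not tested.

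**Figure D5:**
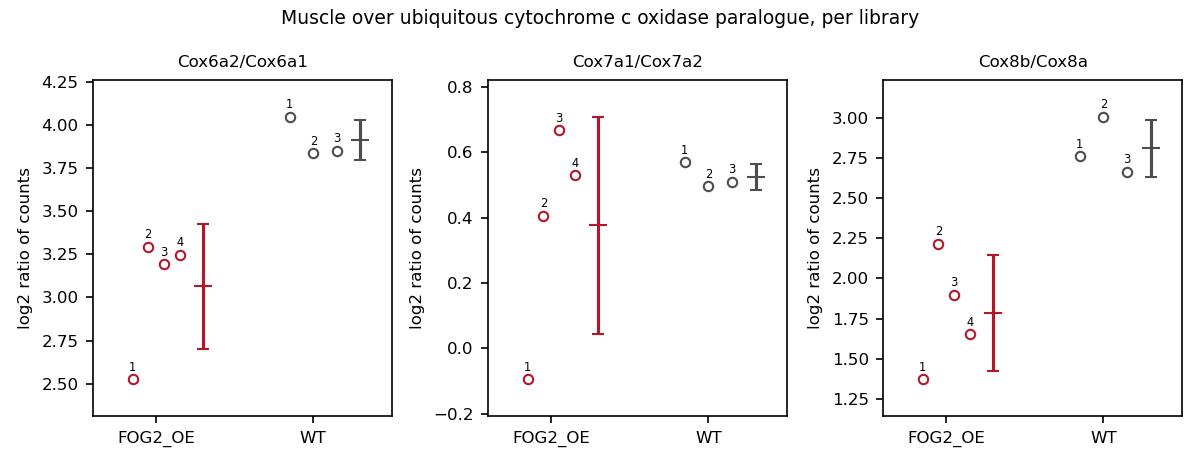
Log2 ratio of the counts of the muscle over the common form of 3 complex IV subunits in each library (points, numbered by replicate), with mean and SD (bars); vertical axes differ and do not start at 0. The FOG2_OE points lie below the WT points for Cox6a2/Cox6a1 and Cox8b/Cox8a and overlap them for Cox7a1/Cox7a2.

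The plot of ratios by library shows that FOG2_OE replicate 1 had the lowest ratio of all 3 pairs. The other pairs rested on few counts of one form. Cox6b2, known as a testis form, had 13, 7, 7 and 2 counts in FOG2_OE and 17, 16 and 17 counts in WT. No FOG2_OE library reached the WT counts, the log2 fold change was -1.12 ± 0.47 (edgeR, adjusted p = 0.235), and its log2 ratio to Cox6b1 differed by -1.10 (exact permutation test, p = 0.0571). Cox4i2, the form used at low oxygen, had 26, 13, 18 and 16 counts in FOG2_OE and 15, 19 and 29 counts in WT. It overlapped between the groups, and its log2 ratio to Cox4i1 differed by 0.18 (exact permutation test, p = 0.629). Cox8c, a testis form, had no counts in any library, and Cox7b2 had 3, 0, 1 and 1 counts in FOG2_OE and 1, 0 and 0 counts in WT; neither was tested.

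In complex V all 15 tested genes had negative values, as did 6216 of all 13295 tested genes. As lower, 1 of the 15 passed the test, a gene that does not encode a subunit, where 3.29% of all tested genes did. Atp5s, renamed Dmac2l, belongs to a family tied to the assembly of the respiratory chain and was long listed with ATP synthase. It lies at chr12:69724950-69744660 on the plus strand and had 14.2, 14.7, 16.3 and 16.5 CPM in FOG2_OE, against 21.8, 26.7 and 21.9 CPM in WT. The groups were well apart, with a log2 fold change of -0.60 ± 0.13 (edgeR, adjusted p = 0.0303). The call was lost without any 1 library other than FOG2_OE replicate 1 (edgeR, adjusted p = 0.0572 to 0.148), with scaling to library totals (0.0548) or with scaling to the sarcomere genes (0.512). Its relative Atp5sl, now Dmac2, stood at -0.41 ± 0.14 (edgeR, adjusted p = 0.164).

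The subunits of ATP synthase itself gave smaller values, and none passed the edgeR test, while DESeq2 called Atp5c1, Atp5f1 and Atp5j lower. The F1 head holds the catalytic sites: Atp5b encodes the catalytic beta subunit, Atp5a1 the alpha subunit and Atp5c1 the rotating gamma subunit. Atp5b had 4068, 3918, 4224 and 4839 CPM in FOG2_OE and 4065, 4810.3 and 4859 CPM in WT. Atp5a1 had 2479, 2197, 2714 and 2901 CPM in FOG2_OE and 2846, 3126 and 3199.5 CPM in WT. Both overlapped between the groups, with log2 fold changes of -0.10 ± 0.13 for Atp5b and -0.25 ± 0.13 for Atp5a1 (edgeR, adjusted p = 0.719 and 0.354). Over the 5 genes of the head the values ran between -0.40 (Atp5c1) and -0.10 (Atp5b), and Atp5c1 was the only one whose groups did not overlap. The peripheral stalk holds the head still against the membrane. Its gene Atp5j, encoding coupling factor 6, had 189, 181, 135 and 177 CPM in FOG2_OE and 238, 235 and 238 CPM in WT. FOG2_OE replicate 3 was the lowest and no library of the groups overlapped, with a log2 fold change of -0.47 ± 0.12 just short of the threshold (edgeR, adjusted p = 0.0595). The other stalk genes, Atp5f1, Atp5o and Atp5h, stood at -0.30, -0.17 and -0.09.

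The ring of c subunits that turns in the membrane is encoded by 3 genes whose mature proteins are the same. Atp5g3 gave nearly all counts of the 3: it had 542, 496, 416 and 474 CPM in FOG2_OE and 536, 585 and 651 CPM in WT. FOG2_OE replicate 1 lay within the WT range, and the log2 fold change was -0.29 ± 0.12 (edgeR, adjusted p = 0.238). Atp5g1 had 16, 37, 11 and 22 counts in FOG2_OE and 20, 23 and 27 counts in WT, and Atp5g2 had 4, 8, 7 and 4 counts in FOG2_OE and 3, 5 and 6 counts in WT. None of the 50-base windows of the Atp5g2 transcript is found in that gene alone. Whether its reads aligned to several places and were counted apart was not tested, and the low counts say little about its level. The log2 ratio of Atp5g1 to Atp5g3 differed by 0.13 between the groups (exact permutation test, p = 0.857), and the ratios to Atp5g2 were left untested for its few counts. Atp5l had 6, 2, 2 and 9 counts in FOG2_OE and 13, 5 and 6 counts in WT, with 15.2% of its windows in no other gene. Its low counts also say little about its level. In all, 8 members averaged under 5 CPM. Of the 20 tested members whose windows all occur in no other gene, 18 had negative values, as did 6216 of all 13295 tested genes. Of these 20 members 5 fell, where 3.29% of all tested genes fell.

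Scaled to transcript length, Atp5b was the highest member, with 2225 CPM per kilobase in FOG2_OE and 2389 CPM per kilobase in WT. Cox7a1 came next, at 1591 CPM per kilobase in FOG2_OE and 1715 CPM per kilobase in WT. The highest of the 6 genes that fell was Cox8b, with 745 CPM per kilobase in FOG2_OE and 1108 CPM per kilobase in WT. In complex II, Sdhb had 368 CPM per kilobase in FOG2_OE and 554 CPM per kilobase in WT.

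The promoters were read for letters of factors known to act on respiratory genes or on the heart. Of the 49 members 38 matched an entry by symbol, and none was found for Sdhc, Cyc1, Cox4i1 or Cox6a2. Each motif was looked for on both strands in the 250 bases before the start, in the members and in all 27025 promoters of the RefSeq table. The core of the NRF1 motif, TGCGCA, was in 18.4% of the members' promoters and in 6.7% of all promoters. The GABPA motif ACTTCCGG was in 7.9% of members and 2.9% of all, and the ERR motif AAGGTCA in 5.3% and 4.1%. The GATA motif AGATAA was in 10.5% of members and 10.3% of all, the T-box motif AGGTGT in 10.5% and 12.0%, and the GC box GGGCGG in 31.6% and 32.9%. The YY1 motif AAGATGGC was in none of the members' promoters and in 1.6% of all. None of these motifs holds another. Among the 5 sequences printed, none held AGATAA. The median share of G and C was 54.2% in the members' promoters against 52.0% over all promoters, and its part in the motif shares was not tested.

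Other lists of mitochondrial, hypoxia and sarcomere genes, drawn up by name, had medians between -0.33 and 0.00. To set beside the counts below, 3.29% of all tested genes fell and 1.55% rose. An unadjusted p under 0.05 (edgeR) was found in 2551 of the 13295 tested genes. Of 37 tested complex I subunit genes 4 fell and none rose, with a median of -0.33; Ndufs7, which carries an iron-sulfur cluster, had 111, 99.5, 97.5 and 104 CPM in FOG2_OE and 133, 157 and 166 CPM in WT (-0.56 ± 0.10; edgeR, adjusted p = 0.0158). Ndufb5, an accessory subunit, fell as well (-0.58 ± 0.11; edgeR, adjusted p = 0.0172). Of 36 assembly factors of complexes II to V 1 fell: Uqcc1, which acts on complex III, had 103, 95.9, 111 and 108 CPM in FOG2_OE and 137, 145 and 153 CPM in WT (-0.47 ± 0.09; edgeR, adjusted p = 0.0203). The median of that list was -0.20, and over 76 mitochondrial ribosomal protein genes it was -0.11, with 1 gene lower (Mrps23). Of 10 carriers, channels and partners of ATP synthase 1 fell, Ckmt2, the mitochondrial creatine kinase that passes the phosphate of new ATP to creatine (-0.57 ± 0.10; edgeR, adjusted p = 0.0162). Of 9 genes for supercomplexes and cristae none passed the edgeR test, with 4 at an unadjusted p under 0.05. Among 9 antioxidant genes 1 fell, Prdx3, a mitochondrial peroxidase (-0.62 ± 0.09; edgeR, adjusted p = 0.00634), and among 11 targets of the hypoxia pathway 1 fell, Pdk1, a kinase that holds back pyruvate dehydrogenase (-0.84 ± 0.12; edgeR, adjusted p = 0.00559), while the hypoxia list had a median of 0.00, with 6 positive and 5 negative values.

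None of 17 regulators of mitochondrial biogenesis passed the edgeR test, and 4 had an unadjusted p under 0.05, as did 2551 of all 13295 tested genes. Ppargc1a, the coactivator PGC-1 alpha, had 36.3, 57.7, 63.9 and 71.8 CPM in FOG2_OE and 91.9, 108 and 73.2 CPM in WT, without overlap (-0.66 ± 0.22; edgeR, adjusted p = 0.148). Perm1, a muscle regulator induced by that coactivator, had 78.9, 68.5, 92.4 and 96.0 CPM in FOG2_OE and 119, 118 and 118 CPM in WT, also without overlap (-0.50 ± 0.12; edgeR, adjusted p = 0.0526). Esrra and Esrrg, nuclear receptors of the same pathway, stood at -0.09 ± 0.15 and -0.13 ± 0.23, Ppargc1b at -0.30 ± 0.21 and Tfam, a transcription factor of mitochondrial DNA, at -0.16 ± 0.09. Nrf1 stood at 0.22 ± 0.12 and Gabpa at -0.20 ± 0.09.

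Summed markers of several cell types differed between the groups without overlap, while those of fibroblasts overlapped. To set beside the calls below, 3.29% of all tested genes fell and 1.55% rose. The summed CPM of 36 sarcomere genes was 101396 to 140336 in FOG2_OE and 151252 to 179710.3 in WT. Of these genes 9 were lower and none higher, 30 had negative and 6 positive log2 fold changes, and the median was -0.32. The sarcomere genes with the smallest p were Nexn (-1.04 ± 0.09) and Nebl (-2.15 ± 0.20), which encode actin-binding proteins. The 11 atrial cardiomyocyte markers summed to 32374 to 41421 CPM in FOG2_OE and 58398 to 65535 CPM in WT, with 5 lower and a median of -0.90. Of these 11, 9 had negative and 2 positive log2 fold changes. The 10 fibroblast markers summed to 9500 to 16506 CPM in FOG2_OE and 6847 to 10191 CPM in WT. By edgeR 0 of them passed the test and 5 had an unadjusted p under 0.05, as did 2551 of all 13295 tested genes. The 11 smooth muscle and pericyte markers summed to 1361 to 1866 CPM in FOG2_OE and 575 to 683 CPM in WT, with 3 higher. Positive log2 fold changes were found in 10 of them and a negative one in 1. The 5 sinus node markers summed to 118 to 158 CPM in FOG2_OE and 14.2 to 21.8 CPM in WT, with 2 of 4 tested higher. Among those 4, 3 had positive log2 fold changes and 1 stood at -0.59. The 7 white fat markers summed to 1375 to 1516 CPM in FOG2_OE and 1681 to 2428 CPM in WT, and by edgeR 0 passed the test, with 1 at an unadjusted p under 0.05. Of the 6 tested, 4 had negative and 2 positive log2 fold changes. Adipoq was highest in FOG2_OE replicate 2, at 17.4 CPM, so other genes of the list gave most of each sum. Scaled to the summed sarcomere counts, 0 members passed as lower and 2 as higher (Cox8a and Cox6a1), where 1.34% and 23.2% of all tested genes did. The complex II genes then lay between -0.16 and 0.14. The part of these differences in the members' values was not tested.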

How the data were processed

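The deposited table held whole-number counts per gene for 7 libraries, made by the authors with tools that included STAR, HTSeq 0.6.0 and DESeq2 on mm10, per the submitters' processing notes, which state no roles. The strand setting of the counting is not given in the sources used here, so reads of overlapping and antisense genes cannot be told apart. The labels call the libraries polyA while the labels' protocols name removal of ribosomal RNA, which leaves the selection step uncertain. Gene rows held 27.8% to 33.1% of a library's reads. Rows for reads with no feature (23.4% to 30.5%), several alignments (37.1% to 43.4%) or ambiguity (0.101% to 0.254%) entered neither library sizes nor tests. Libraries were grouped by title, and 0 columns stayed unmapped. Replicates may be technical, since the labels name no separate animals; p-values measure only the spread between these libraries.

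Genes were filtered with filterByExpr (minimum count 10, minimum total 15; 13295 left), scaled by TMM and tested two-sided with edgeR 4.0.16 (R 4.3.3; quasi-likelihood F test, robust dispersions, no covariate). The Benjamini-Hochberg adjusted p covered every tested gene (threshold 0.05). CPM used TMM-scaled totals. Paralogue ratios (0.5 added to each count) were tested by an exact permutation test over libraries, in SciPy 1.17.1. Gene positions and transcripts came from GENCODE M21; promoters came from a RefSeq table (GRCm38.p6).

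The members, lists, tests and alternatives were chosen with earlier results of these data known. Values in every library are given for members past the test, in each complex the pair with the smallest p and the pair with the highest mean CPM, paralogue pairs, the 3 largest and 3 smallest log2 fold changes, Sdh genes, Cyc1 and Cycs. From other lists the rule takes up to a pair of called genes in each direction; Zfpm2 and 8 regulators were fixed by name. Alternatives were RLE, upper quartile, library-total and sarcomere-list scaling, DESeq2 1.42.0, voom in limma 3.58.1, no filter, a minimum CPM of 1 in 3 libraries, dispersions that were not robust, the replicate number as a block, summed Y-linked transcripts as a covariate, a transcript-length offset, and each library left out.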

Additional observations from a re-analysis of the deposited data

Results flagged for a closer look

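In groups of 4 libraries, a library was listed when its gap to the nearest other library took up more of the group's range than Dixon's 95% critical value. Of 51 groups examined 8 were listed. Chance lists about 1 in 20, but Ucp1, Adipoq and Myl2 were examined outside the naming rule, with earlier results of these data known. The count of 8 can therefore not be set against that rate. Of the members, Cox8b stood apart at 325 CPM in FOG2_OE replicate 2, above the other FOG2_OE libraries. Sdhb stood apart at 389 CPM in FOG2_OE replicate 3 and Uqcrfs1 at 330.1 CPM in FOG2_OE replicate 1, both below the others. The summed CPM of complex V was 11673 in FOG2_OE replicate 4, above the others. The log2 ratio of Cox6a2 to Cox6a1 was 2.53 in FOG2_OE replicate 1, below the others. In FOG2_OE replicate 2, Ucp1 stood at 15 CPM, Adipoq at 17.4 CPM and Myl2 at 45.3 CPM, each far above the other FOG2_OE libraries.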

How the results depend on the processing

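The 6 lower and 0 higher members were the same genes with RLE, upper quartile, a minimum CPM of 1 in 3 libraries and dispersions that were not robust. Scaling to library totals gave 2 lower and 1 higher members, with signs turned for Atp5b (0.0206), Atp5g1 (0.0877) and Cox7a1 (0.0164), and moved the median of all genes to 0.14; of all calls 60.2% were then higher, against 32.0%. Scaling to the sarcomere genes moved that median to 0.47 and the members' median to 0.17, gave 0 lower and 2 higher members and 3269 calls over all genes against 644 (94.6% higher), and turned Atp5a1 (0.18), Atp5b (0.34), Atp5g1 (0.44), Atp5g3 (0.17), Cox4i1 (0.16), Cox4i2 (0.31), Cox5a (0.0614), Cox6a2 (0.10), Cox6b1 (0.27), Cox7a1 (0.34), Cyc1 (0.0915), Cycs (0.0168), Sdhc (0.14), Sdhd (0.0234), Uqcrc2 (0.0446), Uqcrfs1 (0.0111) and Uqcrh (0.25); these values are relative to a median moved by the scaling itself. DESeq2 called 1141 genes, with 15 members lower and 1 higher. The transcript-length offset gave 7 lower and 1 higher members, where 3.34% and 1.82% of all genes were called. Members called lower numbered 4 with no filter (2.28% of all genes) and 4 with Y-linked transcripts as a covariate (3.35% of all genes).

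Leaving out each library gave 256 to 1151 calls over all genes, 0 to 9 members lower and 0 higher. Those fits gave log2 fold changes of -0.51 to 0.14 for Atp5g1, -0.22 to 0.0038 for Cox7a1, -0.0647 to 0.12 for Cox7a2 and -0.37 to 0.13 for Cox4i2, and log2 ratio differences of -0.24 to 0.0093 for Cox7a1/Cox7a2, -0.20 to 0.37 for Atp5g1/Atp5g3 and -0.0161 to 0.37 for Cox4i2/Cox4i1. The cause of these shifts was not tested. Same-numbered libraries deviated from their group means with correlations of 0.079, 0.014 and 0.072, none over 0.1, so the numbers were not taken to pair the libraries. With the replicate number as a block, 382 genes and 0 members passed (adjusted p of 0.0612 for Sdha), and Cox4i2 stood at 0.0053. Of 19 alternatives, Sdha passed in 13, Sdhb in 12, Cox8b in 11, Atp5s in 10, Sdhd in 8 and Cox5a in 7. Library size limits members of few counts most: Cox6b2, Cox4i2, Cox7c and Atp5g1 had 37 counts or fewer a library.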
